A study of Homo sapiens with 29 samples.

Results

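The genes described here are 10 members of the BCL2 family, the proteins that control the mitochondrial pathway of apoptosis: BCL2L1, MCL1 and BCL2, BAX and BAK1, and PMAIP1, BBC3, BID, BIK and BCL2L11. They were named by their place in the family, with no threshold on values but with earlier results of these data known. Their Ensembl identifiers were looked up in a table of 58302 genes. All 10 were in the table, and all 10 were among the 13495 genes that passed the filter on low counts. RNA came from 29 xenograft tumours of MDA-MB-231, a human line of triple-negative breast cancer, or of a paclitaxel-resistant derivative made from it. The hosts were SCID-beige mice, whose own T and B cells do not mature. Of the resistant tumours, 3 libraries were from mice given decitabine with doxorubicin, 3 from decitabine alone, 4 from doxorubicin alone and 4 from vehicle. Of the parental tumours, 4 libraries were from the combination, 4 from decitabine, 3 from doxorubicin and 4 from vehicle. Decitabine was given at 0.4 mg/kg and doxorubicin at 1 mg/kg over 26 days, as 2 cycles of 12 days with 2 days of rest between them. Resistant tumours were started with 1500000 cells and treated from day 16, and parental tumours with 250000 cells and treated from day 6, so that the line cannot be told apart from these settings. The resistant line is 1 derivative, and each mouse could carry a tumour on either side, with no label that ties a library to a mouse. The p-values therefore measure the spread between libraries, some of which could share a mouse.

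In a healthy cell BCL2, BCL2L1 (whose main protein is BCL-XL) and MCL1 hold BAX and BAK1 in check at the outer mitochondrial membrane. BAX and BAK1, once released, form the pores through which cytochrome c leaves and activates caspases. The BH3-only members carry the death signal: PMAIP1 (NOXA) binds mainly MCL1, BBC3 (PUMA) and BCL2L11 (BIM) bind all the survival members, BID is cut by caspase-8 downstream of death receptors, and BIK sits at the endoplasmic reticulum. PMAIP1 and BBC3 are induced by stress-activated factors such as ATF4. Decitabine is a nucleoside that is built into DNA, traps DNA methyltransferases there and lowers CpG methylation. Doxorubicin poisons topoisomerase II, and paclitaxel freezes microtubules. Carcinomas often depend on BCL-XL and MCL1, whose messages are also spliced into shorter forms with the opposite activity, and the counts used here cannot separate splice forms.

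Libraries held 3398261 to 5382295 counts on genes (median 4600007), as tags read near the 3′ end of polyadenylated RNA. Such tags do not scale with transcript length, so levels in CPM (counts scaled to the library size after TMM) can be set side by side between genes. Of the markers chosen for the labelled line, VIM was at 1450 to 3030 CPM in every library. PGR had 1 count in all libraries, and ESR1 reached at most 2.53 CPM. ERBB2 and GATA3, chosen to be low like PGR and ESR1, were at 14 to 24.5 CPM and at 22.2 to 52.8 CPM. The identity therefore rests on the labels. Of 9 lymphocyte markers CD3E, CD2 and MS4A1 had no count in any library. Along the second principal component (13.2% of the variance of 2000 genes) the library of parental vehicle replicate 3 and that of resistant decitabine replicate 2 lay apart from the rest, and values without them are given beside the results that they moved most.

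Promoter sequences are shown because decitabine acts on cytosines in CG pairs. RefSeq start sites (GRCh38.p14) matched 8 of the 10 members, all but BIK and MCL1. There were 13 start sites in all, each given as 250 bases before to 50 after the start. The sequences below are those of PMAIP1 and BID, which were called as higher with decitabine on average. That of BBC3, which has the fewest CG pairs of the 8, is also given. They are written 5′ to 3′ on the strand of the gene, with each CG in capitals.
PMAIP1 (chr18:59899746-59900045, plus strand): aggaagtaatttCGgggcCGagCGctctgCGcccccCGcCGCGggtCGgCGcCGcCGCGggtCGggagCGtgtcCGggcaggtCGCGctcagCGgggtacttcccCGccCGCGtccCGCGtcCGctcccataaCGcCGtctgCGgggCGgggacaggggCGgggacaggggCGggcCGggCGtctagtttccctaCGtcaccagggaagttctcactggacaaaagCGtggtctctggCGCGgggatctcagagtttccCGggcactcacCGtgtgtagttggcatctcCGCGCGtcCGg
BID (chr22:17774420-17774719, minus strand): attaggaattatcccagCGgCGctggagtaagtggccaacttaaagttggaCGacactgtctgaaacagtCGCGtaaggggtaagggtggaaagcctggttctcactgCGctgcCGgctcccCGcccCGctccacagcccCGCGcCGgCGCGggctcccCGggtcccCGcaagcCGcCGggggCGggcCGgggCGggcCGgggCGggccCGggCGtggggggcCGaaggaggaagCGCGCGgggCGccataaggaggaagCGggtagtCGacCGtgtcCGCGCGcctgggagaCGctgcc
BBC3 (chr19:47232618-47232917, minus strand): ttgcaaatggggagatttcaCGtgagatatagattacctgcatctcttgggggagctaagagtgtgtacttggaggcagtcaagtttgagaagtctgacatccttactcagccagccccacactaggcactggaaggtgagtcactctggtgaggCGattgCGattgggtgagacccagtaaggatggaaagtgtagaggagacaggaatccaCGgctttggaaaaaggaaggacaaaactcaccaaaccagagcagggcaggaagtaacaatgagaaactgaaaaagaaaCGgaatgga
The PMAIP1 window held 42 CG pairs, and 5.85% of 35116 promoter windows of the same length held as many or more. The BID window held 37 (11.3% of windows had as many), one of 5 BID start sites whose counts ran from 6 to 37, and BBC3 held 5 (70.4%). BCL2L11 had 39, BAX 38, BCL2 31, BCL2L1 20 and 16 at its start sites, and BAK1 7, against a median of 14 over all windows. The motif GGGCGG, searched on both strands, was present in 9 of the 13 member windows and in 45% of all windows. These counts describe sequence only, since methylation was not measured in these libraries. Averaged over lines and doxorubicin, the log2 difference with decitabine was 0.45 for PMAIP1, 0.23 for BID, 0.27 for BBC3 and 0.31 for BAK1. It was -0.02 for BCL2L11, -0.01 for BAX, 0.09 for BCL2 and 0.13 for BCL2L1. Of these only PMAIP1 and BID were called, and a relation of CG pairs to the response was not tested.

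Among the members, BCL2L1 was the most abundant, with a median of 476 CPM over the 29 libraries (range 282 to 1230) and 37.1% of the family's summed CPM at the median. MCL1 followed with a median of 334 CPM (152 to 529), PMAIP1 with 259 (167 to 456) and BBC3 with 105 (69.6 to 226). BAX had a median of 44.1 CPM and BID of 30.6 CPM. The remaining members were low, with medians of 9.91 CPM for BAK1, 6.64 for BCL2L11, 6.25 for BCL2 and 0.559 for BIK. BIK had 126 counts over all libraries together, against 67593 for BCL2L1, so its values are the least precise of the family.

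**Figure D1:**
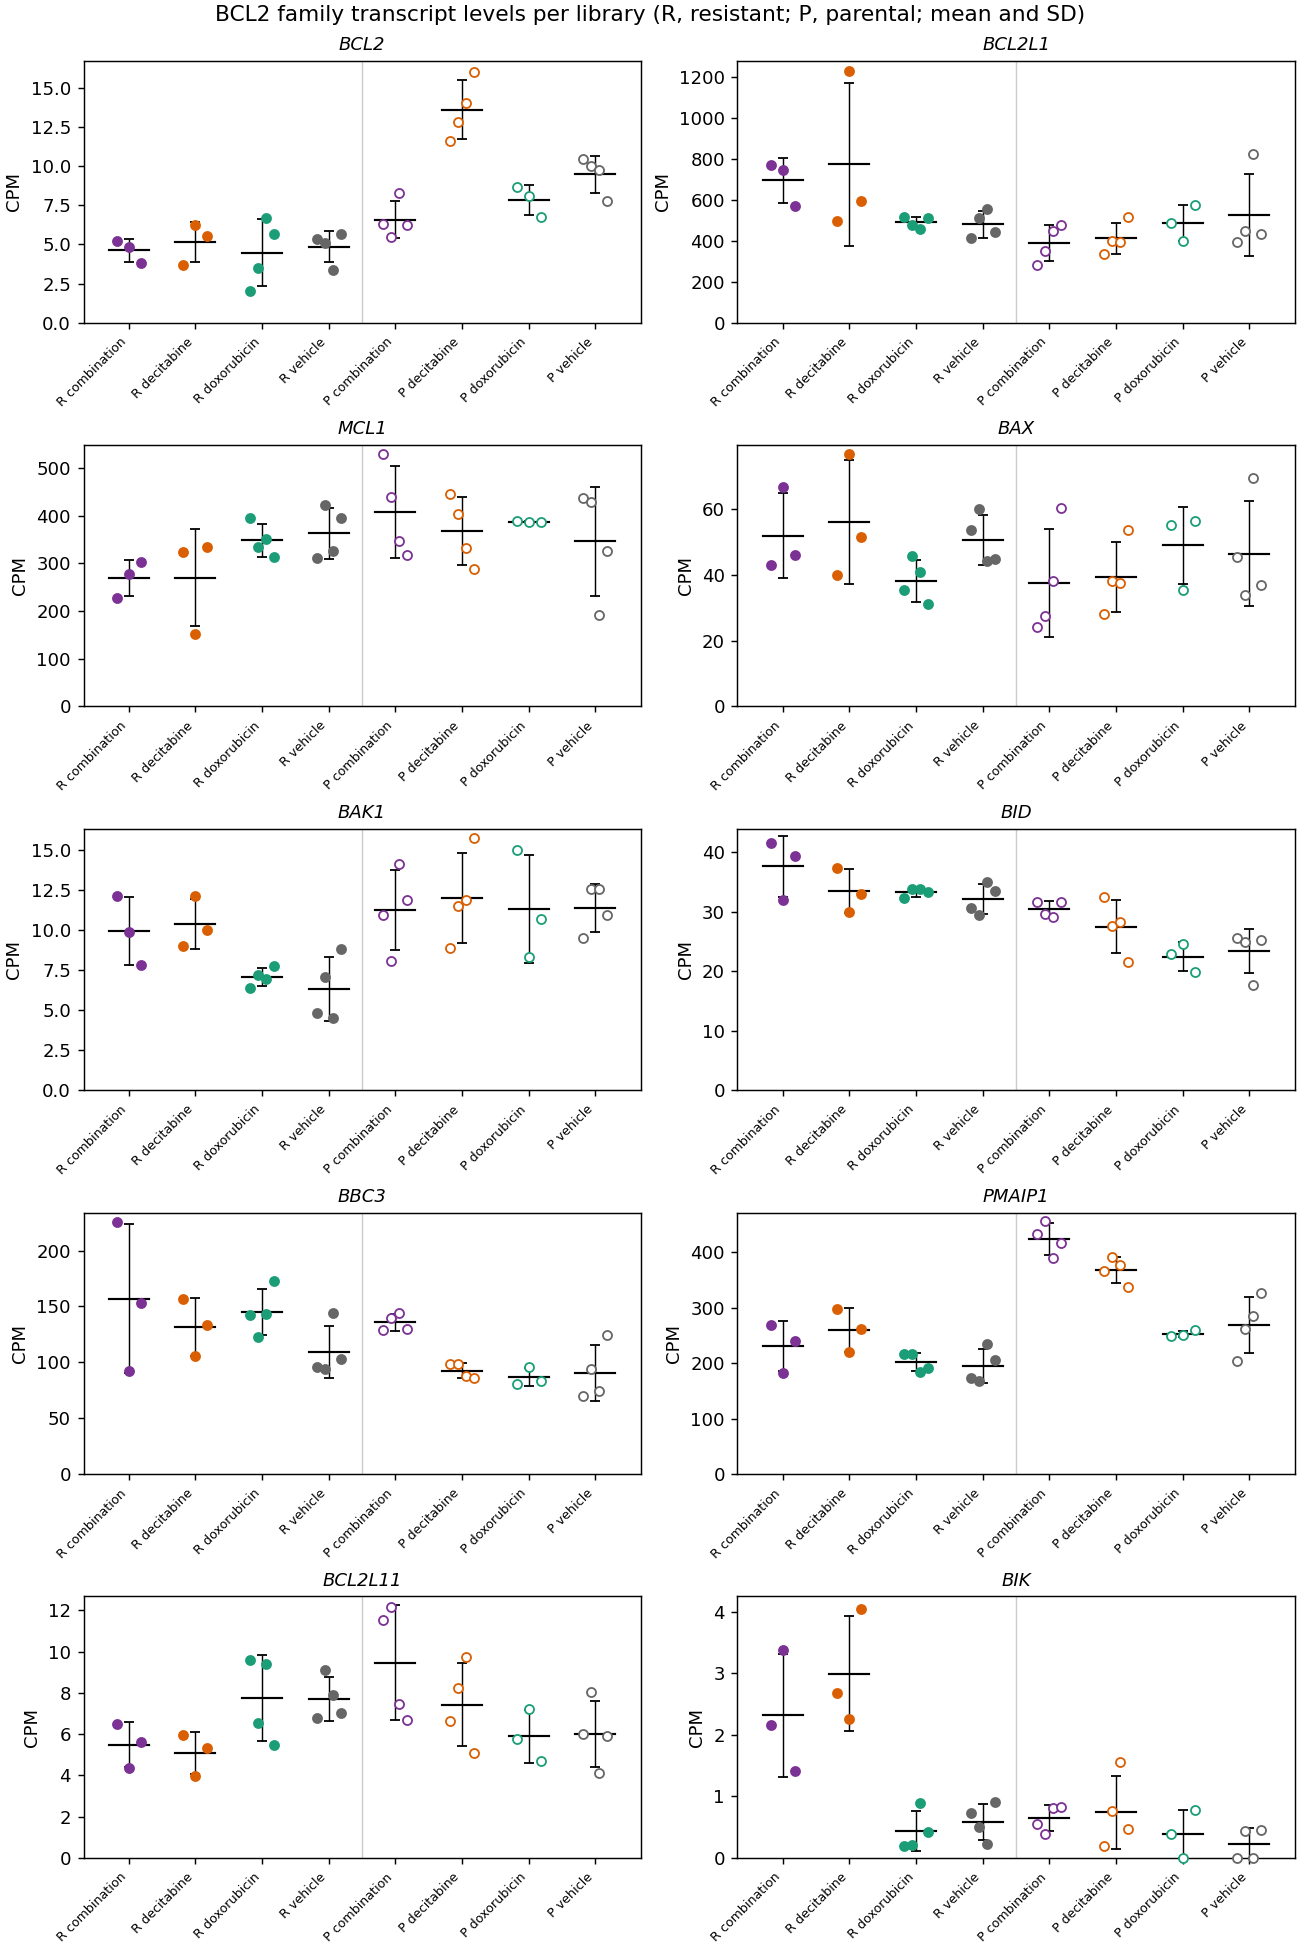
Level of each of the 10 genes in CPM (linear axes from 0), with 1 point per library, bars for the group mean and whiskers for the SD. Filled points are resistant (R) and open points parental (P) tumours; BIK is raised in the 6 resistant libraries with decitabine (1.41 to 4.04 CPM), and BCL2 is highest in the parental decitabine group (13.6 CPM on average).

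Between the lines, 8 of the 10 members differed when the 4 treatments were averaged, where 46% of all genes tested did (edgeR quasi-likelihood test, Benjamini-Hochberg adjusted p under 0.05, as for all calls here). BIK (log2 difference 1.30), BBC3 (0.44), BCL2L1 (0.41) and BID (0.40) were higher in resistant tumours. BCL2 (-0.93), PMAIP1 (-0.54), BAK1 (-0.48) and MCL1 (-0.28) were lower. The median of the log2 difference over the 10 members was 0.02, against 0 over all genes. Under vehicle 4 members were called in resistant against parental tumours (20.1% of all genes): BID was higher, and BCL2, BAK1 and PMAIP1 were lower. Under decitabine 4 were called (26.8% of all genes), BIK and BCL2L1 higher and BCL2 and PMAIP1 lower. Under doxorubicin 3 were called (13.9%), BID and BBC3 higher and BCL2 lower. Under the combination 4 were called (21.9%), BIK and BCL2L1 higher and PMAIP1 and BCL2L11 lower. The BIK call under the combination held in 3 of 7 fits without 1 library and was lost without replicate 1 or 2 of either group (adjusted p up to 0.138). In bulk tumours fewer cells of a type and less RNA per cell cannot be told apart. The lymphocyte marker list also differed between the lines: its summed level was 15.1 to 42.3 CPM in resistant libraries and 3.25 to 11.1 CPM in parental libraries. Nearly all of that sum was IL7R and CD8A, and 7 of the 9 markers were too low to test. A luminal list of 4 genes, nearly all of it GATA3 and ERBB2, summed to 55.8 to 78.2 CPM in resistant and 39.9 to 53.1 CPM in parental libraries. Endothelial markers summed to 12.4 to 16.0 CPM in resistant and 17.3 to 26.0 CPM in parental tumours under vehicle, and to 9.39 to 20.5 CPM in resistant and 23.5 to 30.6 CPM in parental tumours under doxorubicin. The part of any of these in the results was not tested.

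**Figure D2:**
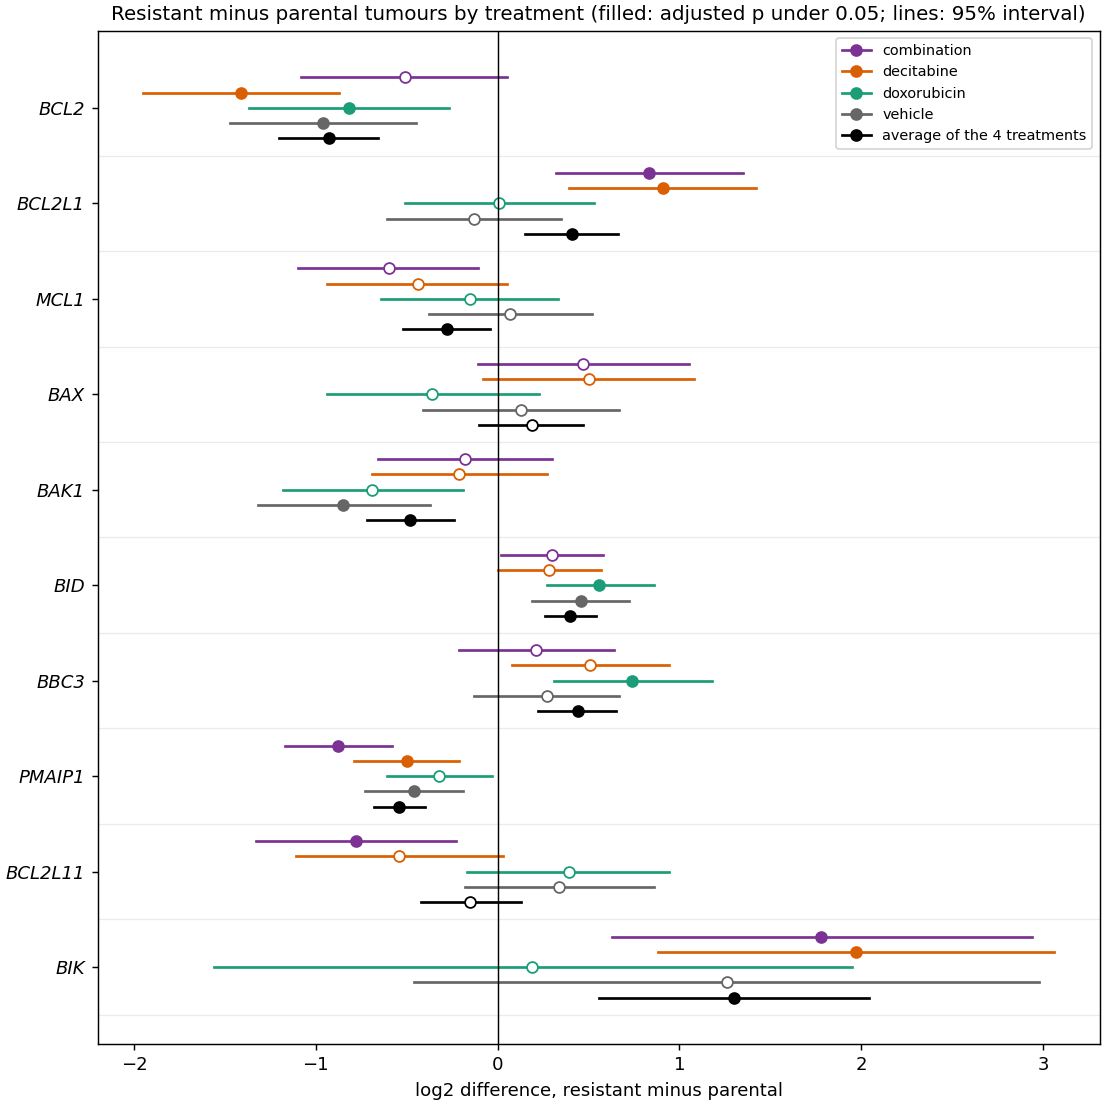
Log2 difference between resistant and parental tumours for each gene within each treatment and averaged over the 4 treatments, with 95% intervals; filled points passed an adjusted p under 0.05. BCL2 and PMAIP1 lie below 0 and BID and BBC3 above 0 in all 4 treatments, while the BCL2L1 estimates lie near 0 without decitabine (-0.13 and 0.01) and at 0.91 and 0.83 with it.

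Among the survival members, BCL2, the founding member of the family, was lower in resistant tumours. Its gene lies at chr18:63123346-63320128 (GRCh38, minus strand, GENCODE release 29, as for all positions here). Under vehicle its level was 5.34, 5.07, 3.39 and 5.65 CPM in resistant tumours, against 10.4, 10.0, 9.77 and 7.76 CPM in parental tumours. The groups did not overlap, as in 22.3% of all genes, and the log2 difference was -0.96 (SE 0.25, edgeR adjusted p = 0.00626). Under decitabine the difference was -1.41 (SE 0.26, adjusted p = 0.000218), and under doxorubicin -0.82 (SE 0.27, adjusted p = 0.0385). Under the combination it was -0.51 (SE 0.28, adjusted p = 0.177), which did not pass. The doxorubicin call was lost without any 1 of the 3 parental doxorubicin libraries, or without resistant doxorubicin replicate 1 or 2 (adjusted p up to 0.14), and with upper quartile scaling, no filter or only these groups fitted (up to 0.097). Transcripts AC022726.1 and AC022726.2 overlap BCL2, so some of its tags could belong to them.

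In parental tumours BCL2 also varied with treatment. Its level was 11.6, 12.8, 14.04 and 16.0 CPM with decitabine, the highest of the 8 groups (mean 13.6 ± 1.9, SD, n = 4). With the combination it was 6.33, 5.50, 8.27 and 6.25 CPM (mean 6.59 ± 1.2, n = 4). The decitabine libraries lay above every library of the combination, of doxorubicin (8.66, 8.12 and 6.78 CPM) and of vehicle. Of all genes 15.9% did not overlap between the combination and decitabine, and 9.46% between decitabine and vehicle. The combination set against decitabine gave a log2 difference of -1.04 (SE 0.23, edgeR adjusted p = 0.00722), the 1 member called in that comparison, where 6.63% of all genes were called. This comparison was added after the BCL2 values had been seen. Decitabine against vehicle gave 0.52 (SE 0.22, adjusted p = 0.205), which did not pass. The interaction of decitabine with doxorubicin in parental tumours, also added afterwards, was -0.78 for BCL2 (SE 0.34, unadjusted p = 0.0303, adjusted p = 0.377). No member passed that interaction test (0.00741% of all genes did, and 2 members had an unadjusted p under 0.05, as did 11.5% of all genes, with 0 members called by DESeq2). In resistant tumours the BCL2 means ran from 4.47 ± 2.1 CPM with doxorubicin (n = 4) to 5.15 ± 1.3 CPM with decitabine (n = 3), within the spread of each group. There the combination against decitabine called no member and no gene at all (0% of genes), with 0 members at an unadjusted p under 0.05 (3.73% of genes) and 0 called by DESeq2.

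BCL2L1, at chr20:31664452-31723989 (minus strand), differed between the lines where decitabine had been given. With the combination it was at 768, 744 and 568 CPM in resistant tumours, against 282, 351, 448 and 475 CPM in parental tumours. The groups did not overlap, as in 28.9% of all genes, and the log2 difference was 0.83 (SE 0.25, edgeR adjusted p = 0.0186). With decitabine alone it was at 497, 1230 and 591 CPM in resistant tumours, against 336, 399, 392 and 517 CPM in parental tumours (log2 difference 0.91, SE 0.25, adjusted p = 0.00847). Without resistant decitabine replicate 2, the library at 1230 CPM, that difference was 0.40 with an adjusted p of 0.249. The combination call was lost without parental combination replicate 1, or without resistant combination replicate 1 or 2 (adjusted p up to 0.08). Under vehicle the difference was -0.13 (95% interval -0.61 to 0.35) and under doxorubicin 0.01 (-0.51 to 0.53). ABALON and AL117381.1 lie antisense within BCL2L1, and the strand setting of the counting was not given in the sources used here.

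The response of BCL2L1 to decitabine differed between the lines. Over resistant tumours with decitabine, alone or in the combination, it ran from 497 to 1230 CPM with a median of 668 (n = 6), against 411 to 556 CPM with a median of 492 (n = 8) in resistant tumours without it. Over parental tumours with decitabine it ran from 282 to 517 CPM with a median of 396 (n = 8), against 392 to 820 CPM with a median of 448 (n = 7) in parental tumours without it. The line difference in the decitabine response, resistant minus parental, was 0.93 for BCL2L1 (SE 0.25, edgeR adjusted p = 0.0421). Within 1 line neither decitabine contrast passed, with 0.69 in resistant tumours (adjusted p = 0.122) and -0.35 in parental tumours (adjusted p = 0.426). Most of both values rested on the 2 libraries that lay apart, without which they were 0.18 (adjusted p = 0.756) and -0.05 (adjusted p = 0.916). BCL2L11, below, was the other member called in this test, in which 3.32% of all genes were called. Without the 2 libraries that lay apart, the BCL2L1 difference was 0.53 with an adjusted p of 0.133, with a filter of 1 CPM the adjusted p was 0.0512, and leaving out single libraries ended the call in 19 of 29 fits (adjusted p up to 0.107). Both of those libraries had the highest BCL2L1 of their lines, at 1230 and 820 CPM.

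MCL1, at chr1:150574551-150579738 (minus strand), codes for a short-lived protein that many solid tumours need. It was lower in resistant tumours on average (log2 difference -0.28, SE 0.12, edgeR adjusted p = 0.0487), close to the threshold. The call was lost in 20 of 29 fits without 1 library (adjusted p up to 0.118) and under 4 of 7 alternatives, which were both other scalings, the CPM filter and the replicate block (adjusted p up to 0.0913). Levels ran from 152 to 422 CPM with a median of 324 in resistant libraries (n = 14) and from 193 to 529 CPM with a median of 387 in parental libraries (n = 15). With the combination MCL1 was at 227, 278 and 302 CPM in resistant tumours, against 529, 440, 347 and 317 CPM in parental tumours. These groups did not overlap, as in 28.9% of all genes, and the difference of -0.60 (SE 0.24) did not pass (edgeR adjusted p = 0.0706). Without the 2 libraries that lay apart, neither of which is in these groups, the same difference had an adjusted p of 0.00604. ADAMTSL4-AS1 overlaps MCL1 on the same strand, and tags of the overlap could belong to either.

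BCL2L1 and MCL1 ran against each other from library to library. In resistant tumours Pearson's r of their log2 CPM was -0.88 over 14 libraries (adjusted permutation p = 0.0063), and Spearman's rho was -0.55 (adjusted permutation p = 0.139). In parental tumours r was -0.85 over 15 libraries (adjusted permutation p = 0.00495) and rho was -0.72 (adjusted permutation p = 0.0241). With the group means removed, r was -0.80 in resistant and -0.90 in parental tumours. Without the 2 libraries farthest from the median of BCL2L1, r was -0.46 in resistant and -0.53 in parental tumours, so the strength of the relation rests on those libraries. Without the library that lay apart in each line, r was -0.68 in resistant and -0.69 in parental tumours. In all 90 relations were computed, 45 pairs of members in each line, and p-values were adjusted over the 90; 21 passed for r and 15 for both r and rho. As a measure of how common such values are, all genes tested were set against MCL1. At least as negative with it were 0.534% in resistant and 0.311% in parental libraries. In parental tumours BCL2L1 also ran with BAX (r = 0.88, rho = 0.82, adjusted permutation p = 9e-04 and 0.0241, r = 0.84 without the 2 farthest libraries). It ran against BID there (r = -0.84, rho = -0.74, adjusted permutation p = 0.0027 and 0.0241, r = -0.72 without the 2 farthest). In resistant tumours neither relation passed, with r = 0.58 and rho = 0.32 for BAX (adjusted permutation p = 0.094 and 0.454) and r = -0.01 and rho = 0 for BID (0.971 and 1). The differences between the lines were not tested.

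**Figure D3:**
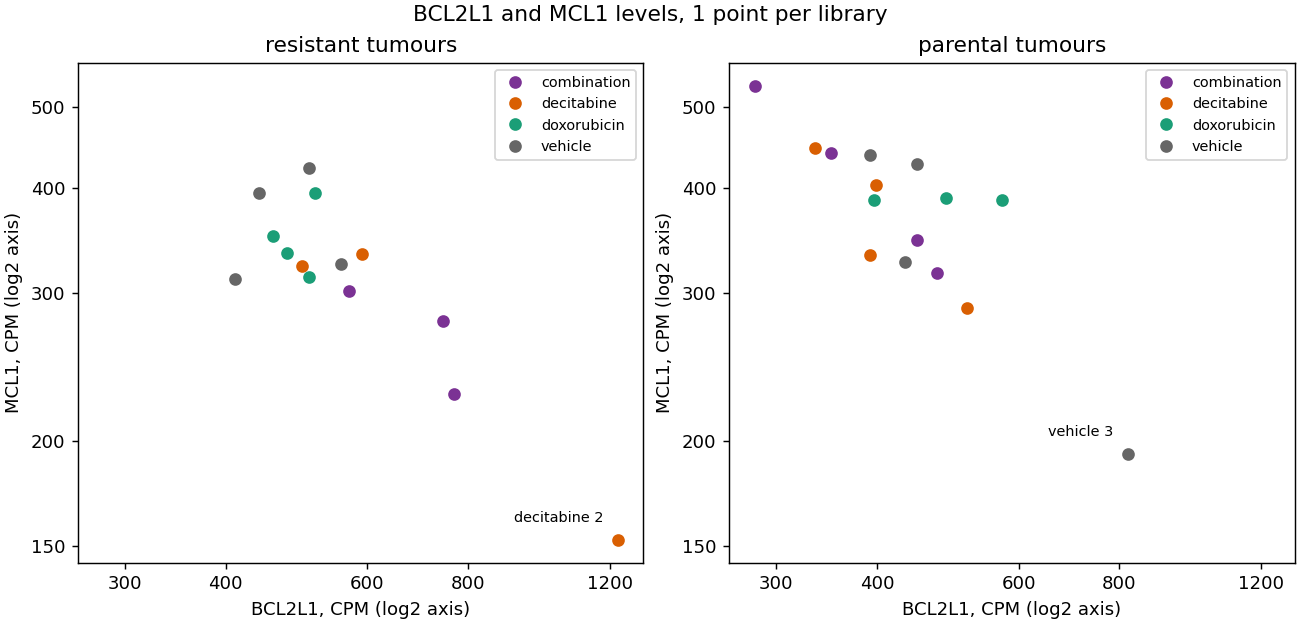
MCL1 against BCL2L1 in CPM on log2 axes, with 1 point per library, resistant tumours on the left and parental tumours on the right. MCL1 is lower where BCL2L1 is higher (r of -0.88 and -0.85), and the named points, resistant decitabine replicate 2 and parental vehicle replicate 3, lie at the far end of each panel.

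Of the pore-forming members, BAK1, at chr6:33572547-33580293 (minus strand), was lower in resistant tumours. Under vehicle it was at 4.86, 7.09, 4.52 and 8.81 CPM in resistant tumours, against 9.51, 12.6, 12.6 and 10.9 CPM in parental tumours. The groups did not overlap, as in 22.3% of all genes, and the log2 difference was -0.85 (SE 0.23, edgeR adjusted p = 0.00941). It kept its call in each of the 8 fits without 1 library of these groups (adjusted p up to 0.0486). Under doxorubicin the difference was -0.69 (SE 0.24, adjusted p = 0.0563), with a replicate block or without the 2 libraries apart giving adjusted p-values of 0.0381 and 0.0495. It was -0.21 (95% interval -0.69 to 0.27) under decitabine alone and -0.18 (-0.66 to 0.30) under the combination. The decitabine effect on BAK1 was 0.71 in resistant tumours alone (SE 0.25, adjusted p = 0.11), and its line difference of 0.57 (SE 0.24) had an adjusted p of 0.121, so neither passed. GGNBP1 overlaps BAK1 on the other strand, and BAK1P1 and BAK1P2 are pseudogene copies, so BAK1 counts are uncertain to that extent.

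BAX, at chr19:48954815-48961798 (plus strand), was not called in any comparison. It ran from 30.9 to 76.6 CPM with a median of 45.1 in resistant libraries and from 24.2 to 69.2 CPM with a median of 38.1 in parental libraries. Averaged over treatments the log2 difference between the lines was 0.19 (95% interval -0.10 to 0.47, edgeR adjusted p = 0.289). The highest BAX levels of each line were again in resistant decitabine replicate 2 (76.6 CPM) and parental vehicle replicate 3 (69.2 CPM). Averaged over lines, decitabine moved BAX by -0.01 (-0.30 to 0.28) and doxorubicin by -0.12 (-0.41 to 0.16), with both intervals holding 0.

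The effect of decitabine, averaged over the lines and over doxorubicin, was called in 3 members, all higher, where 6.8% of all genes were called (3.96% as higher). These were BIK (log2 difference 1.75), PMAIP1 (0.45) and BID (0.23), all BH3-only genes. The median over the 10 members was 0.18, against -0.01 over all genes. For decitabine against vehicle 1 member was called in resistant tumours (3.33% of all genes) and 0 in parental tumours (1.67%), where 2 members had an unadjusted p under 0.05 (19.2% of all genes did) and DESeq2 called 1, PMAIP1. For the combination against doxorubicin 0 members were called in resistant tumours (0.66%), with 1 at an unadjusted p under 0.05 (12.5% of all genes) and 0 by DESeq2, and 1 in parental tumours (0.304%). For the combination against vehicle 0 members were called in resistant tumours (1.13%), with 4 at an unadjusted p under 0.05 (15.5%) and 0 by DESeq2, and 1 in parental tumours (1.03%). The comparisons against vehicle within a line share the vehicle libraries. Markers of endothelium moved with decitabine in resistant tumours, with a summed level over 8 genes of 26.4 to 41.8 CPM with decitabine and 9.39 to 20.5 CPM without it. In parental tumours that sum was 23.4 to 30.8 CPM with decitabine and 17.3 to 30.6 CPM without it. Most counts of that list were PECAM1 (1580) and ENG (1159), while VWF and CLDN5 had 8 and 3 over all libraries. A fibroblast list summed to 217 to 2110 CPM over all libraries. In parental tumours it was at 741 to 2060 CPM with decitabine and 357 to 770 CPM with the combination. With doxorubicin it was at 573 to 1260 CPM there, and with vehicle at 798 to 1240 CPM. The part of either cell type in the results was not tested.

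**Figure D4:**
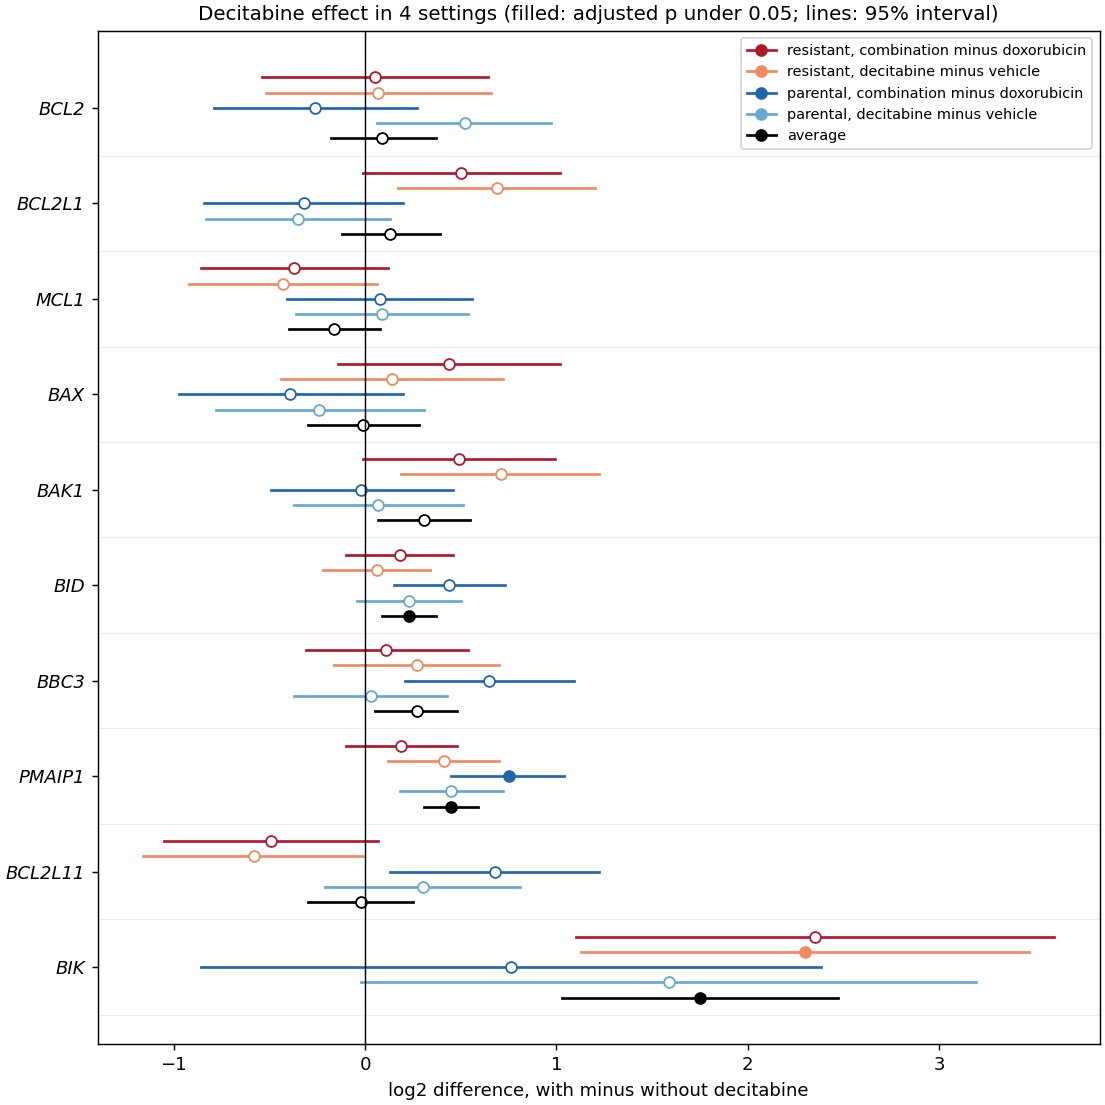
Log2 difference with minus without decitabine for each gene in resistant and parental tumours, with and without doxorubicin, and on average, with 95% intervals; filled points passed an adjusted p under 0.05. BIK, PMAIP1, BID and BBC3 lie above 0 in all 4 settings, and BCL2L1 and BCL2L11 lie on opposite sides of 0 in the lines.

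BIK, at chr22:43110748-43129712 (plus strand), has been described as silenced by promoter methylation in other tumour types. In resistant tumours with decitabine alone it was at 2.67, 2.26 and 4.04 CPM (13, 8 and 19 counts), against 0.728, 0.507, 0.226 and 0.904 CPM with vehicle (3, 2, 1 and 4 counts). With the combination it was at 2.16, 3.38 and 1.41 CPM (10, 14 and 7 counts), against 0.200, 0.218, 0.894 and 0.421 CPM with doxorubicin (1, 1, 4 and 2 counts). All 6 resistant libraries with decitabine lay above all 8 without it. How many of all genes separated in this pooled way was not computed, so how rare it is cannot be said. Between the decitabine and vehicle groups alone 16% of all genes did not overlap. The ratio of the scaled counts was 5.16 (exact 95% interval 2.54 to 11.6, counting error only) for decitabine over vehicle and 5.31 (2.39 to 13.4) for the combination over doxorubicin. The fitted log2 difference for decitabine against vehicle was 2.30 (SE 0.57, edgeR adjusted p = 0.0229), and for the combination against doxorubicin 2.35 (SE 0.61, adjusted p = 0.0722). Without resistant decitabine replicate 3, or resistant vehicle replicate 2 or 3, the decitabine call was lost (adjusted p up to 0.102). It was also lost when only these 2 groups were fitted (adjusted p = 0.0574).

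In parental tumours BIK was at 0.190, 0.767, 1.56 and 0.464 CPM with decitabine, against 0, 0.435, 0 and 0.456 CPM with vehicle. The sums were 15 counts with decitabine and 4 with vehicle, a ratio of 3.24 (exact 95% interval 1.03 to 13.4), and the fitted difference of 1.59 (SE 0.78) had an edgeR adjusted p of 0.263. The combination and doxorubicin groups held 13 and 5 counts, a ratio of 1.75 (0.585 to 6.26). The line difference in the response was 1.15 (SE 0.80, adjusted p = 0.35), so a difference between the lines was not shown. Averaged over lines and doxorubicin the decitabine effect was 1.75 (SE 0.35, adjusted p = 0.00211), and it passed in all 29 fits without 1 library. In the order of the group means, resistant decitabine (2.99 ± 0.94 CPM, n = 3) and the resistant combination (2.32 ± 1.0, n = 3) came first and overlapped each other. The next, parental decitabine (0.745 ± 0.59, n = 4), reached 1.56 CPM, overlapping the resistant combination (from 1.41 CPM) above it and each of the remaining groups below it. Over the 29 libraries the 5 genes most like BIK in log2 CPM were NRIP3 (Pearson's r = 0.84), LINC01694 (0.82), TAS1R1, TMEM204 and FILIP1 (0.80 each). NRIP3, for example, averaged 10.6 CPM in resistant tumours with decitabine and 8.55 with the combination, and was at 0 with vehicle in both lines. Within a library all genes share its depth, and no group mean of these 6 genes exceeded the 10.6 CPM of NRIP3.

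PMAIP1, at chr18:59899948-59904306 (plus strand), was the BH3-only gene with the highest level and had the window rich in CG pairs printed above. In parental tumours with the combination it was at 432, 456, 389 and 417 CPM, against 248, 250 and 259 CPM with doxorubicin. With decitabine alone it was at 367, 391, 376 and 336 CPM, against 203, 261, 285 and 326 CPM with vehicle. All 8 parental libraries with decitabine lay above all 7 without it. The share of all genes that separated in this pooled way was not computed, so how rare it is cannot be said. Between single pairs of groups 12.6% of all genes did not overlap for the combination against doxorubicin and 9.46% for decitabine against vehicle. The log2 difference for the combination against doxorubicin was 0.75 (SE 0.14, edgeR adjusted p = 0.0124), and against vehicle 0.66 (SE 0.13, adjusted p = 0.00998). For decitabine against vehicle it was 0.45 (SE 0.13, adjusted p = 0.0645), and DESeq2 gave an adjusted p of 0.0255. The call against doxorubicin was lost without parental combination replicate 2 or any 1 of the 3 doxorubicin libraries (adjusted p up to 0.0812), and the call against vehicle without parental vehicle replicate 1 (0.0537) or when only these groups were fitted (0.0661).

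In resistant tumours PMAIP1 was at 298, 219 and 261 CPM with decitabine, against 172, 168, 234 and 206 CPM with vehicle, and these groups overlapped (log2 difference 0.41, SE 0.14, edgeR adjusted p = 0.0997). With the combination it was at 269, 182 and 240 CPM, against 216, 215, 185 and 191 CPM with doxorubicin (0.19, SE 0.14, adjusted p = 0.577). The line difference in the decitabine response was -0.30 (SE 0.14, adjusted p = 0.165) and did not pass. Averaged over lines and doxorubicin the effect was 0.45 (SE 0.07, adjusted p = 9.38e-05) and passed in all 29 fits without 1 library. PMAIP1 was lower in resistant than in parental tumours at -0.46 under vehicle (SE 0.13, adjusted p = 0.0123), -0.50 under decitabine (SE 0.14, adjusted p = 0.00988) and -0.88 under the combination (SE 0.14, adjusted p = 8.18e-05). Under doxorubicin the difference was -0.32 (SE 0.14, adjusted p = 0.138). The call under vehicle was lost without parental vehicle replicate 4, or without resistant vehicle replicate 1 or 2 (adjusted p up to 0.0936) or when only these groups were fitted (0.0513), and that under decitabine without resistant decitabine replicate 2 (0.0801).

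BID, at chr22:17734138-17774770 (minus strand), was higher in resistant tumours. Averaged over lines and doxorubicin, it rose with decitabine by less than BIK or PMAIP1. Under doxorubicin it was at 32.2, 33.8, 33.8 and 33.3 CPM in resistant tumours, against 22.9, 24.6 and 19.8 CPM in parental tumours (log2 difference 0.56, SE 0.14, edgeR adjusted p = 0.00652), a call lost with no filter on low counts (0.0581). Under vehicle it was at 30.6, 29.4, 35.0 and 33.4 CPM in resistant tumours, against 25.5, 25.0, 17.7 and 25.3 CPM in parental tumours. That difference was 0.46 (SE 0.13, adjusted p = 0.0135), and without the low library, parental vehicle replicate 3, it was 0.35 with an adjusted p of 0.0664. That call was also lost with no filter and when only these groups were fitted (adjusted p up to 0.0943). Under decitabine it was 0.28 (SE 0.14, adjusted p = 0.129) and under the combination 0.30 (SE 0.14, adjusted p = 0.107). Within a line no decitabine contrast of BID passed. In resistant tumours decitabine against vehicle gave 0.06 (adjusted p = 0.838) and the combination against doxorubicin 0.18 (0.591). In parental tumours the same contrasts gave 0.23 (adjusted p = 0.333) and 0.44 (0.234). The decitabine effect averaged over lines and doxorubicin was 0.23 (SE 0.07, adjusted p = 0.041). It was lost in 15 of 29 fits without 1 library (adjusted p up to 0.0816), with no filter on low counts (0.201) and with a replicate block (0.0548).

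BBC3, at chr19:47220822-47232766 (minus strand), was higher in resistant tumours under doxorubicin. It was at 142, 123, 143 and 172 CPM in resistant tumours, against 80.8, 95.7 and 83.4 CPM in parental tumours, and the groups did not overlap, as in 27.8% of all genes. The log2 difference was 0.74 (SE 0.21, edgeR adjusted p = 0.0179), and it was lost without parental doxorubicin replicate 1 or 3 (adjusted p up to 0.0844). In parental tumours with the combination BBC3 was at 129, 140, 144 and 130 CPM, against 80.8, 95.7 and 83.4 CPM with doxorubicin alone. The 4 combination libraries lay above every other parental library, of which the highest was at 124 CPM under vehicle. Of all genes 12.6% did not overlap between the combination and doxorubicin, and 10.1% between the combination and vehicle. The difference against doxorubicin was 0.65 (SE 0.21, adjusted p = 0.247) and against vehicle 0.58 (SE 0.20, adjusted p = 0.126), so neither passed. When only the 2 groups were fitted, the difference against doxorubicin had an adjusted p of 0.0171, and with no filter on low counts 0.00819.

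BCL2L11, at chr2:111119378-111168447 (plus strand), was the other member whose response to decitabine differed between the lines. Over resistant tumours with decitabine it ran from 3.96 to 6.49 CPM with a median of 5.47 (n = 6), against 5.47 to 9.61 CPM with a median of 7.46 without it (n = 8). Over parental tumours with decitabine it ran from 5.11 to 12.2 CPM with a median of 7.86 (n = 8), against 4.12 to 8.04 CPM with a median of 5.93 without it (n = 7). The line difference was -1.02 (SE 0.27, edgeR adjusted p = 0.0408), and without the 2 libraries apart it was -0.89 (adjusted p = 0.13). Leaving out single libraries ended the call in 18 of 29 fits (adjusted p up to 0.0922). Under the combination BCL2L11 was lower in resistant tumours, at 6.49, 4.35 and 5.63 CPM, against 11.5, 12.2, 7.47 and 6.67 CPM in parental tumours (-0.78, SE 0.27, adjusted p = 0.0373). That call was lost without parental combination replicate 1 or 2, or without any 1 of the 3 resistant combination libraries (adjusted p up to 0.157), and with no filter or only these groups fitted (up to 0.0832). MIR4435-2HG runs antisense over BCL2L11, and BCL2L11 had 949 counts over all libraries.

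Doxorubicin set against vehicle, or averaged over lines and decitabine, gave no called member, and its 1 call was that of BCL2 above, where it was added to decitabine in parental tumours. Against vehicle 0 members were called in resistant tumours (0% of all genes), with 1 at an unadjusted p under 0.05 (4.38% of all genes did; it was BBC3, log2 difference 0.41) and 0 called by DESeq2. In parental tumours 0 members were called (0.23% of all genes), with 0 at an unadjusted p under 0.05 (10.5% of all genes) and 0 called by DESeq2. Averaged over lines and decitabine 0 were called (2.37% of all genes), with 2 at an unadjusted p under 0.05 (18.6% of all genes) and 0 called by DESeq2. Those 2 were BCL2 (-0.40, SE 0.13, edgeR adjusted p = 0.0994) and BBC3 (0.29, SE 0.10, adjusted p = 0.122). For PMAIP1, which is induced by DNA damage in many cells, the averaged doxorubicin effect was 0.00 with a 95% interval from -0.14 to 0.14.

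The share of each class in the family's summed CPM was set side by side as a description, with no test. In parental tumours with the combination the BH3-only genes made up 41.3% ± 1.6 (SD, n = 4) and the survival genes 55.3% ± 1.0. With decitabine alone they made up 37.0% ± 2.4 and 59.1% ± 1.7 (n = 4). With doxorubicin the same shares were 28.2% ± 2.6 and 67.2% ± 1.8 (n = 3), and with vehicle 29.4% ± 5.5 and 66.3% ± 4.9 (n = 4). The survival share of 54.2% to 56.3% with the combination lay below every parental doxorubicin library (65.3% to 69.0%) and every parental vehicle library (59.2% to 70.1%). In resistant tumours the survival share averaged 66.3% ± 5.4 with the combination (n = 3), 66.9% ± 7.9 with decitabine (n = 3), 66.0% ± 0.98 with doxorubicin (n = 4) and 67.8% ± 2.8 with vehicle (n = 4). The decitabine libraries were at 60.0%, 75.5% and 65.1%, against 65.3% to 71.8% with vehicle, so these groups overlapped only through decitabine replicate 2, the library that lay apart. BAX and BAK1 together made up 2.41% to 5.51% in every library. A sum of messages is dominated by BCL2L1, MCL1 and PMAIP1 and says nothing of protein.

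**Figure D5:**
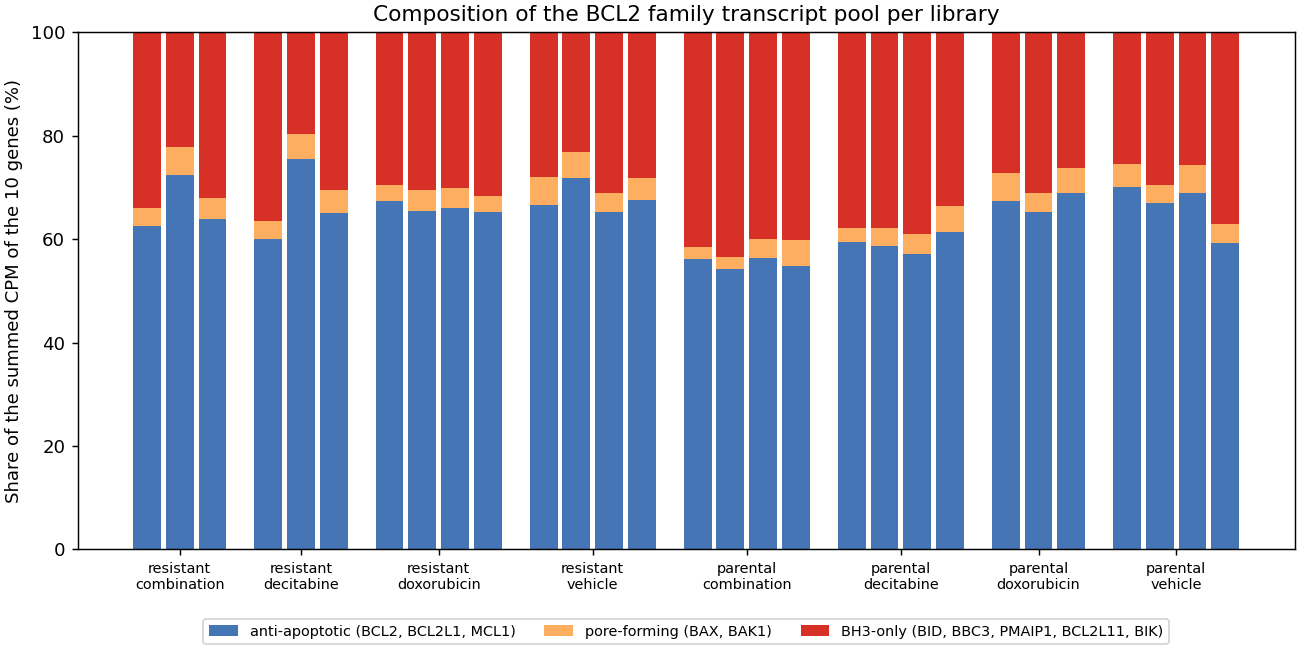
Share of the summed CPM of the 10 genes taken by survival (anti-apoptotic), pore-forming and BH3-only genes, with 1 bar per library and the axis in percent from 0 to 100. The BH3-only share is highest in the parental combination libraries, at 40.0% to 43.4%.

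Other genes of the pathway were read from 5 lists. Of 12 tested relatives outside the 10 members, 4 were higher and 2 lower in resistant tumours when treatments were averaged. They included BCL2L2, which codes for the survival protein BCL-W, at 7.91 CPM in resistant and 4.68 CPM in parental tumours (log2 difference 0.72, SE 0.12, edgeR adjusted p = 1.5e-05). BMF, a BH3-only gene, was at 5.59 CPM in resistant and 3.47 CPM in parental tumours (0.65, adjusted p = 0.00296). Of 16 apoptosome and caspase genes 1 was higher and 7 lower, led by CASP2, an initiator caspase, at 13.3 CPM in resistant and 29.6 CPM in parental tumours (-1.15, SE 0.09, adjusted p = 5.49e-11). VDAC2, a channel of the outer mitochondrial membrane that binds BAK1, was at 172 CPM in resistant and 214 CPM in parental tumours (-0.34, adjusted p = 8.8e-05). Of 10 inhibitors of apoptosis and their antagonists 4 were higher, led by BIRC3 (cIAP2) at 130 CPM in resistant and 69.0 CPM in parental tumours (0.96, SE 0.11, adjusted p = 1.98e-08). CFLAR, which blocks caspase-8, was at 143 CPM in resistant and 115 CPM in parental tumours (0.32, adjusted p = 1.91e-05). Of 9 genes of MCL1 and NOXA turnover 4 were lower, among them UBE2J2 (-0.44) and MARCHF5 (-0.44). Of 15 transcriptional inducers 6 were higher and 1 lower, with E2F1 at 0.71, STAT3 at 0.47 and HIF1A at -0.40. The list medians were -0.01, -0.20, 0.17, -0.15 and 0.16 in this order, against 0 over all genes, of which 22.6% were higher and 23.4% lower.

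Decitabine averaged over lines and doxorubicin called fewer genes of these lists, to be read against 6.8% of all genes called and 3.96% called as higher. Among the inhibitors of apoptosis and antagonists 3 of 10 rose. BIRC7 (livin) averaged 1.87 CPM with decitabine and 0.166 CPM without it (log2 difference 3.11, SE 0.45, edgeR adjusted p = 5.08e-05). XAF1, which opposes XIAP, averaged 18.1 CPM with decitabine and 10.1 CPM without it (0.92, SE 0.19, adjusted p = 0.00282), and BIRC3 averaged 108 CPM with it and 89.3 CPM without it (0.40, SE 0.10, adjusted p = 0.0176). Of the 12 other relatives BNIP3, a hypoxia-induced gene of mitophagy, fell, at 199 CPM with decitabine and 279 CPM without it (-0.64, SE 0.16, adjusted p = 0.0185). Of the 15 inducers FOXO3, which drives BCL2L11 in many cells, fell, at 53.0 CPM with decitabine and 62.2 CPM without it (-0.21, SE 0.06, adjusted p = 0.0337). Of 16 apoptosome and caspase genes 0 were called by edgeR, with 2 at an unadjusted p under 0.05 and 1 called by DESeq2. Of 9 genes of MCL1 and NOXA turnover 0 were called, with 0 at an unadjusted p under 0.05 and 0 called by DESeq2. The list medians lay between -0.03 and 0.06, against -0.01 over all genes.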

How the data were processed

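RNA from 29 snap-frozen xenograft tumours was sequenced as QuantSeq FWD libraries, with poly(A) selection, per the labels. The authors deposited raw whole-number counts for each gene, not normalised. The submitters' processing notes name cutadapt, STAR 2.7.3a, featureCounts, DESeq2 and the build GRCh38.p10. Not given in the sources used here are the annotation release, the strand setting and what was done with reads from mouse. Of 58302 genes, filterByExpr kept 13495 (minimum count 10, minimum total 15), and TMM factors were 0.896 to 1.07. A quasi-likelihood fit with 8 group means (edgeR 4.0.16, R 4.3.3, common dispersion 0.0304) gave all contrasts. P-values were adjusted by Benjamini-Hochberg within each contrast over all genes tested, and called under 0.05. Levels are CPM, and SE belongs to the log2 difference. Correlations used 1e+05 two-sided permutations. The members, lists and comparisons were chosen with earlier results of these data known. Besides the members, up to 4 called genes per list and contrast (smallest adjusted p) could be named, and the 5 genes most like the member with the widest range. With totals of 3398261 to 5382295 counts, BIK had 0 to 19 counts a library. Replicates differed by more than sampling noise (chi-square per degree of freedom at least 3.65). Alternatives were other scalings and filters, a replicate block, DESeq2 1.42.0, fits on fewer groups and each library left out. The fit was tested on simulated data.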

Additional observations from a re-analysis of the deposited data

Results flagged for a closer look

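In parental vehicle tumours the BCL2L1 level of replicate 3, 820 CPM, stood far above the other 3 libraries (392 to 448 CPM). In the same group the BID level of replicate 3, 17.7 CPM, stood far below the other 3 (25.0 to 25.5 CPM). Of 50 sets of 4 libraries examined in this way 2 were picked out, and chance picks about 1 in 20. The response to decitabine differed between the lines for BCL2L1 (log2 difference of responses, resistant minus parental, 0.93, edgeR adjusted p = 0.0421) and for BCL2L11 (-1.02, edgeR adjusted p = 0.0408). Neither passed without the 2 libraries that lay apart, at 0.53 and -0.89 with adjusted p-values of 0.133 and 0.13.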

How the results depend on the processing

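Of 32 called results of single members, 16 passed in every fit that left out 1 library, 19 under every other alternative and 15 under both, and 0 reversed. Under the other alternatives, PMAIP1 (averaged over treatments -0.54, with decitabine 0.45) and BIK (1.30 and 1.75) kept their averaged calls in all of them. The share of all genes called was recorded for the main fit only. The counts of members below therefore show how calls moved with the settings, and do not set the members apart from other genes. With no filter on low counts the numbers of members called were 7 for the lines under decitabine, 1 under doxorubicin, 1 for decitabine in parental and 2 in resistant tumours, 2 and 2 for the combination against doxorubicin in parental and in resistant tumours, 1 for doxorubicin on average, 3 and 2 for the combination against vehicle in parental and in resistant tumours, 2 for the combination against decitabine in parental tumours and 4 for the line difference in the decitabine response. BAX under decitabine (0.49, adjusted p = 0.0381) was among those added, and the cause was not tested. With a filter of 1 CPM in 3 libraries the line difference called 1, and without the 2 libraries apart 0, where the combination against doxorubicin in resistant tumours called 1 (BIK, adjusted p = 0.047). With only the compared groups fitted, which leaves fewer samples, the lines under vehicle called 2, decitabine in resistant tumours 0, the combination in parental tumours 2 against doxorubicin, 0 against vehicle and 2 against decitabine. DESeq2 called 1 for decitabine in parental tumours. With each library left out in turn, the members called ranged from 3 to 4 for the lines under vehicle, 2 to 4 under decitabine, 1 to 3 under doxorubicin, 1 to 5 under the combination and 7 to 8 on average. For decitabine they ranged from 0 to 1 in parental and 0 to 2 in resistant tumours and from 2 to 4 on average, and for the combination against doxorubicin from 0 to 1 in parental tumours and at 0 in resistant tumours. For doxorubicin they were 0 in both lines and 0 to 1 on average. For the combination against vehicle they ranged from 0 to 2 in parental and 0 to 1 in resistant tumours, and against decitabine they were 1 in parental and 0 in resistant tumours. The interaction in parental tumours gave 0 and the line difference 0 to 2. Replicate numbers did not pair the libraries: same-numbered libraries had correlations of -0.46 to 0.43 (median 0) over 94 pairs, and 8 of 29 correlated best with their own number. With the replicate number as a block the counts of members called were 4 under each of the 4 treatments for the lines, 7 on average, 1 for decitabine in resistant tumours and 2 on average, and 2 for the line difference. Depth limits BIK most, with 126 counts in all.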
